A study of Mus musculus with 6 samples.

Results

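AP-1 and immediate early transcription factor genes were examined by chromatin accessibility in wild-type and Utx-knockout bone marrow progenitors of the mouse. The genes were Fos, Fosb, Fosl2, Jun, Junb, Jund, Batf, Atf3 and Egr1, and a peak was assigned to a gene when it lay inside its RefSeq span or within 20 kb of it on build mm10. These 9 of 21887 protein-coding genes had 60 of the 75961 regions that carried a peak in any sample. Each of the 9 genes had at least 1 peak in every sample, and each sample had 45 to 53 peaks near them.

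The study compared mice without the histone demethylase UTX, labelled UTX_KO and written Utx-/- in the study's design, with wild-type mice, labelled UTX_WT and written Utx +/+, both on the C57BL/6 strain. The assay was ATAC-seq, which uses a transposase to cut open chromatin and insert sequencing adapters. The cells were lineage-depleted (Lin-) bone marrow cells, a mixture enriched for haematopoietic stem and progenitor cells, with 3 samples of each genotype. The labels give neither the age or sex of the mice, nor how and in which cells the gene was deleted, nor whether the samples of a group came from separate animals, so p-values measure only the spread between these samples, which may be technical.

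AP-1 is a family of dimeric factors that bind DNA through a basic region and pair through a leucine zipper. FOS proteins need a JUN partner, JUN proteins can also pair with each other, and BATF pairs with JUN proteins in lymphoid and dendritic cells. Fos, Jun, Egr1 and their relatives are immediate early genes, which are switched on within minutes of a signal through MAP kinases without new protein synthesis, and in the marrow they respond to cytokines, stress and handling of the cells.

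The data of a sample were 1 list of peak coordinates, with no score or read count, so sequencing depth is unknown. Wild-type lists held 57405 to 57917 peaks covering 32.6 to 33.8 Mb, and knockout lists 44576 to 50249 peaks covering 26.8 to 29.9 Mb, so every knockout list was shorter. All 10 progenitor marker genes examined had a peak in every sample. Their surroundings held 104 to 108 peaks in the wild-type and 77 to 93 in the knockout samples. As a share of each list's peaks these were 0.181% to 0.187% and 0.170% to 0.186%. Of the 10, Kit, Cd34, Gata2, Hoxa9 and Runx1 (5) had less peak coverage in the knockout and 0 had more (limma, adjusted p under 0.05). Of all genes tested, 41.6% had less and 7.64% more. With coverage scaled to each sample's total, 2 of the 10 had less and 1 more, where 21.3% and 16.0% of all genes did. Peaks near the marker genes were summed gene by gene, so a peak near 2 genes of a list counted for each, in these counts and shares. Vpreb1 and Igll1, for example, had the same values in every sample, so such neighbours are not separate observations. Near 15 erythroid marker genes there were 107 to 117 peaks in the wild-type and 39 to 42 in the knockout samples, counted in this way. All 15 genes had less peak coverage in the knockout (limma, adjusted p under 0.05), and Slc4a1 and Hba-a2 had no peak in any knockout sample. Near 12 B lymphoid marker genes there were 53 to 59 and 78 to 100 peaks, with more coverage at 8 of the 12 genes and less at 0. Counts were 70 to 74 and 38 to 46 near 12 megakaryocyte genes, 36 to 43 and 42 to 47 near 14 T and NK genes, 95 to 110 and 82 to 99 near 16 granulocyte and monocyte genes, and 31 to 35 and 20 to 26 near 11 stroma and endothelium genes. As a share of each list's peaks, the granulocyte and monocyte genes overlapped between genotypes (0.165% to 0.192% and 0.184% to 0.197%), as did the progenitor genes. The erythroid, megakaryocyte and stroma shares were lower in every knockout sample, and the B lymphoid and T and NK shares were higher. In bulk samples, a different share of a cell type and a different accessibility within its cells cannot be told apart, and the part of these marker differences in the results that follow was not tested.

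Most of the gene starts lay inside peaks in both genotypes. RefSeq gives a start and strand for 8 of the 9 genes in the promoter table used here, all but Egr1. In 5 of them, Fos, Fosl2, Jun, Junb and Atf3, all 250 bases before the start were inside a peak in all 6 samples. At Fosb the 250 bases were covered in 5 samples and 217 of them in knockout sample 3, and at Batf 197 to 250 bases were covered. At Jund none of these 250 bases was in a peak in any sample. The upstream stretches of 4 genes are printed 5′ to 3′ on the gene's strand (RefSeq, GRCm38.p6, the same assembly as mm10), to show what lay inside these peaks at the genes whose surroundings are contrasted below.
Fos, chr12:85473640-85473889, plus strand: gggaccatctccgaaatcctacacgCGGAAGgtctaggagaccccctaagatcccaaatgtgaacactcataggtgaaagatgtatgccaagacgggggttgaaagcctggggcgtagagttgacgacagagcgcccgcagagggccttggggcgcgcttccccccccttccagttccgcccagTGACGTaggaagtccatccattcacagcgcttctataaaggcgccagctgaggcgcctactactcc
Batf, chr12:85686470-85686719, plus strand: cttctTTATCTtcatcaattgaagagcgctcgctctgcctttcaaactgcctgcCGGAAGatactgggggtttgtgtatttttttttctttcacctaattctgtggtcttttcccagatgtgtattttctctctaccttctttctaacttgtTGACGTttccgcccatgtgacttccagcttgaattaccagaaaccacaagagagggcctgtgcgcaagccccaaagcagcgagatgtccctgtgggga
Atf3, chr1:191183334-191183583, minus strand: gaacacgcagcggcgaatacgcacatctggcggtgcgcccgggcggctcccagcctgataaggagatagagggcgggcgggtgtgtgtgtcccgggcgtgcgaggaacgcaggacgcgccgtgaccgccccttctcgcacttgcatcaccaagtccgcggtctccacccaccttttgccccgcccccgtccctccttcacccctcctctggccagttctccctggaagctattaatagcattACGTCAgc
Junb, chr8:84978749-84978998, minus strand: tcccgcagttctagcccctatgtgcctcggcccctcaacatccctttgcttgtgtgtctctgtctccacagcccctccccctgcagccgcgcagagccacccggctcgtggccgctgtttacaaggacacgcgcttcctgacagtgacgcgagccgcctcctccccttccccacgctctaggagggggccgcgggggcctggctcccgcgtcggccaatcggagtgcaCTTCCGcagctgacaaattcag
Capitals mark matches, on either strand, to the core of the cyclic AMP response element (TGACGT), an ETS motif (CGGAAG) and a GATA motif (AGATAA), and no 2 marked matches overlap.

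The cyclic AMP response element is a sequence through which CREB and ATF factors act, and its core was present before Fos (61 to 66 bases before the start), Batf (93 to 98) and Atf3 (3 to 8), 3 of 8 members. It occurred in 7.37% of 21263 upstream windows of the same length before protein-coding genes. The ETS motif was before Fos, Fosl2, Junb and Batf, 4 of 8, against 17.1% of all windows, and the GATA motif before Jun and Batf, 2 of 8, against 8.81%. The AP-1 motif (TGANTCA) and the CArG box, the letters bound by serum response factor, were found in 0 of 8 of these windows and in 6.13% and 1.39% of all windows. These matches describe letters in 250 bases and do not show binding. Egr1 and bases farther from the starts were not searched, so motifs there are not covered.

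Most regions near the 9 genes kept a peak in every sample, 2 lost it in the knockout and 0 gained one. Of the 60 regions, 37 (61.7%) had a peak in all 6 samples, where 42.9% of the 62098 regions near any protein-coding gene did. The share was 59.3% near the other immediate early genes and 50.6% near the other AP-1 and basic leucine zipper partners described below. The 60 regions were also wider, with a median of 621 bases against 454 near any protein-coding gene. Lost regions are those with a peak in each of the 3 wild-type samples and in no knockout sample, and gained regions are the reverse. Lost regions were 3.33% of the 60, and the background is 10.7% lost and 4.05% gained. With only the widest 50% of each sample's peaks, 4 of 38 regions near the 9 genes were lost (10.5%, against 10.5% near any protein-coding gene). A further 9 regions had a peak in 1 sample only, and the other 12 were mixed. No single region of 3 samples against 3 can go below an exact permutation p of 0.1.

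**Figure D1:**
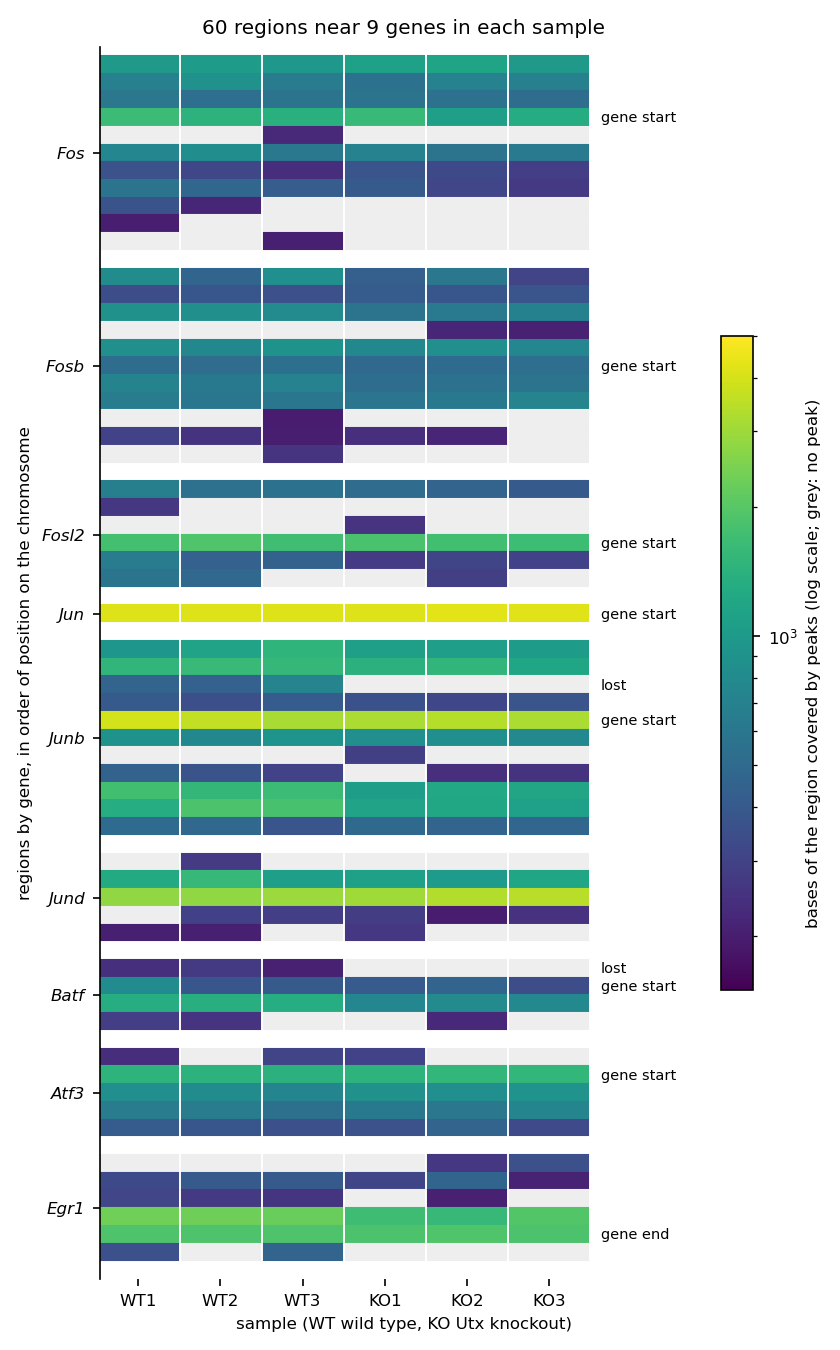
Each row is 1 of the 60 regions, grouped by gene and ordered by position, and each column is a sample. Colour gives the bases of the region covered by peaks on a log scale and grey means no peak; the rows over gene starts are filled in all 6 samples, and the 2 lost rows, at Junb and Batf, are grey in all 3 knockout samples.

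Batf had the clearest difference. BATF is an AP-1 factor without an activation domain of its own, known for its roles in T and B lymphocytes and dendritic cells. Peaks within 20 kb covered 2648, 2284 and 1911 bases in wild-type samples 1, 2 and 3 and 1156, 1476 and 1121 bases in knockout samples 1, 2 and 3. Every knockout value was below every wild-type value, as at 51.0% of 16252 genes tested (10.1% had every knockout value higher), and the mean dropped by 45.2%, from 2281 ± 369 to 1251 ± 196 bases (SD, n = 3 each). On the log2(bases + 200) scale the difference was -0.77 with a standard error of 0.14 (limma over 16252 genes, adjusted p = 0.0038).

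The widest peak at Batf is in the later part of the gene. It lies 17893 to 19266 bases after the gene start (chr12:85704613-85705986, mm10), and its peak covered 1314, 1373 and 1308 bases in the wild-type samples and 752, 794 and 784 bases in the knockout samples. Every knockout value was thus below every wild-type value, with little spread within either group. The log2 difference in width was -0.78 with a standard error of 0.07 (limma over 31159 regions with a peak in all 6 samples, adjusted p = 9.3e-04), and it was called in all 10 alternatives tried. The lost region of Batf lies 12514 to 12787 bases before the start (chr12:85673933-85674206), with peaks of 245, 274 and 206 bases in wild type, narrow ones in lists whose narrowest peak is 199 bases. At the Batf start the peak covered 807, 384 and 397 bases in wild type and 404, 458 and 337 in knockout, so the groups overlapped there and wild-type sample 1 stood above the rest (log2 difference -0.33, limma adjusted p = 0.47). Without that sample the difference was 0.02. The remaining region, just beyond the gene's other end, had a peak in wild-type samples 1 and 2 and in knockout sample 2.

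**Figure D2:**
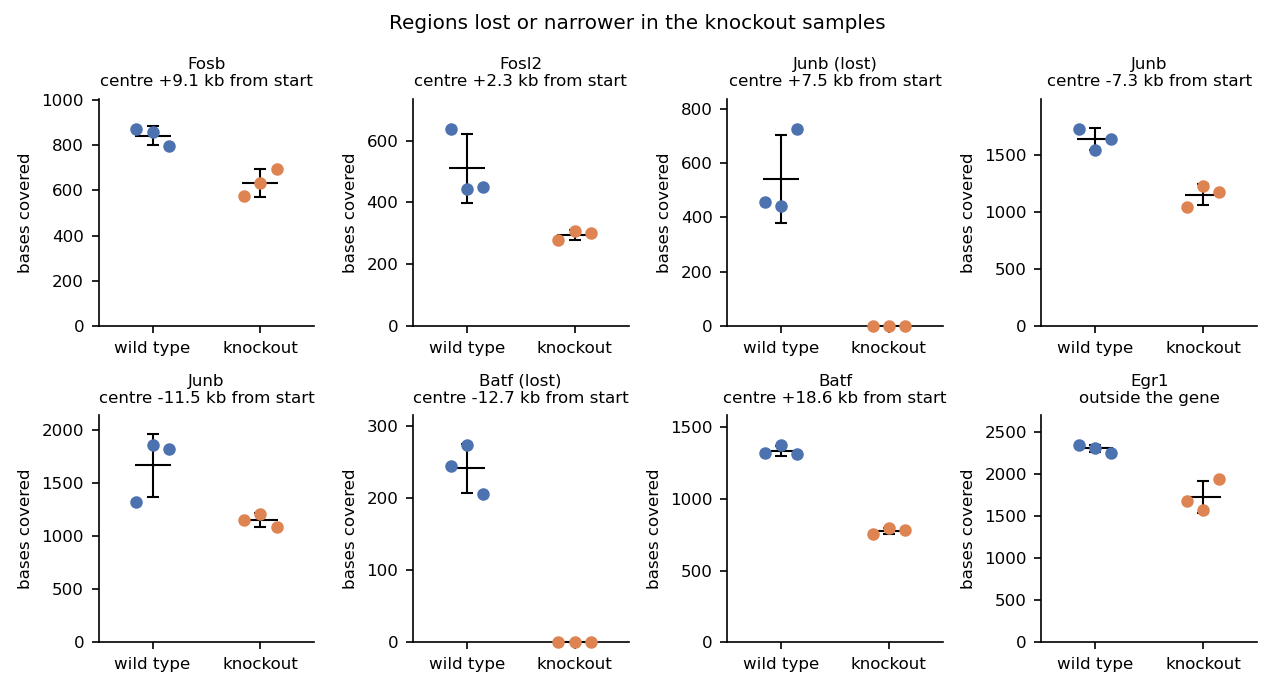
Bases covered by peaks in each sample at the 6 regions narrower in knockout by limma and at the 2 lost regions, with the mean and SD (n = 3). Titles give the distance of the region's centre from the gene start, except at Egr1, where the title says only that the region is outside the gene. Every knockout point lies below every wild-type point of its panel, as at Batf with 1308 to 1373 against 752 to 794 bases. At the 2 lost regions this follows from the definition, and the other 6 were picked because they were narrower.

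Junb, which encodes a JUN protein that restrains proliferation of blood stem and myeloid cells, sits among other genes and had the most covered bases of the 9. Coverage was 12121, 12177 and 12360 bases in wild type and 9877, 10240 and 9547 in knockout, and the groups did not overlap. The log2 difference was -0.30 with a standard error of 0.05 (limma adjusted p = 0.0029), which is close to that of the median gene given below. A pair of upstream regions was narrower in the knockout. The nearer one lies 6395 to 8134 bases before the start and outside any annotated gene (chr8:84985143-84986882). Its nearest protein-coding gene is Hook2, at 1894 bases, and not Junb. This region covered 1728, 1538 and 1635 bases in wild type and 1045, 1223 and 1174 in knockout (log2 difference -0.51 ± 0.08 SE, limma adjusted p = 0.0093). The farther one, 10458 to 12498 bases before the start and overlapping Hook2, covered 1322, 1855 and 1813 bases against 1153, 1211 and 1083 (log2 difference -0.52 ± 0.14 SE, limma adjusted p = 0.044). The nearer region was called in all 10 alternatives tried, and the farther one was not called in 8 of 9.

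The lost region assigned to Junb lies inside another gene. It is within Prdx2, encoding peroxiredoxin 2, an antioxidant enzyme abundant in red cells, at 7168 to 7894 bases beyond the Junb start (chr8:84970854-84971580). Its peaks covered 457, 440 and 727 bases in wild-type samples 1, 2 and 3. Over the Junb gene and its start, a region of 4214 bases was covered by 3937, 3624 and 3163 bases in wild type and 3220, 3394 and 3187 in knockout, groups that overlapped (limma adjusted p = 0.33).

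Egr1 had a similar arrangement. EGR1 is a zinc finger factor of the immediate early response, known for holding stem cells in quiescence. Coverage was 5204, 4862 and 5254 bases in wild type and 3828, 4408 and 4361 in knockout, without overlap (log2 difference -0.27 ± 0.08 SE, limma adjusted p = 0.023). The difference is close to the -0.24 of the median gene, and Egr1 was not called in 6 of 14 alternatives, among them coverage scaled to the total (limma adjusted p = 0.72) and a distance of 50 kb (0.13). The region over the gene's lower-coordinate end (chr18:34859777-34861685) was covered by 1866, 1881 and 1883 bases in wild type and 1845, 1899 and 1858 in knockout, almost the same in both (log2 difference -0.01, limma adjusted p = 0.94). A neighbouring region 4396 bases outside that end (chr18:34854396-34856811) was narrower, with 2345, 2313 and 2255 bases in wild type and 1674, 1578 and 1940 in knockout (log2 difference -0.42 ± 0.08 SE, limma adjusted p = 0.018), and it was not called in 4 of 9 alternatives. It was a single peak in each wild-type sample and was split into 3, 3 and 2 peaks in knockout samples 1, 2 and 3. Of all regions in all 6 samples, 0.279% had 1 peak in every wild-type and at least 2 in every knockout sample, and 0.254% the reverse.

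**Figure D3:**
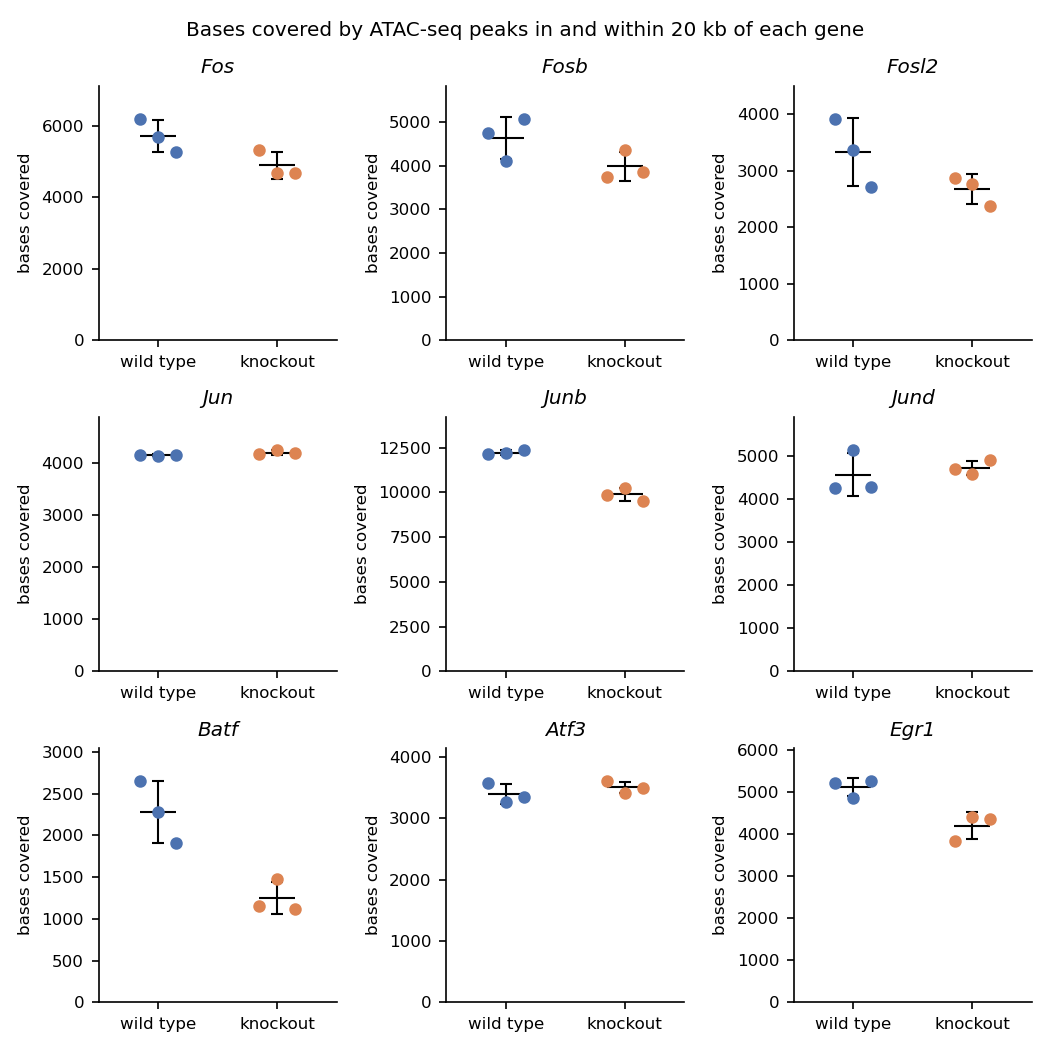
Bases covered by peaks in and within 20 kb of each gene, 1 point per sample, with the mean and SD (n = 3) of each genotype. Knockout points lie below all wild-type points at Junb, Batf and Egr1 and slightly above them at Jun; in the other panels the groups overlap.

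The FOS family genes had overlapping coverage in the 2 genotypes. Fos, the partner of JUN in classical AP-1, had 6179, 5692 and 5260 bases in wild type and 5306, 4684 and 4668 in knockout (log2 difference -0.22 ± 0.09 SE, limma adjusted p = 0.069). It was the only one of the 9 genes whose number of peaks did not overlap, with 9, 8 and 9 peaks in wild type and 7 in each knockout sample, where 27.6% of the 16985 genes with a peak had fewer in every knockout sample and 4.24% had more (two-sided exact permutation p = 0.1, the smallest possible, adjusted p = 0.31). The Fos start region was covered by 1638, 1437 and 1392 bases in wild type and 1587, 1066 and 1301 in knockout. Its largest width difference, 15266 to 15833 bases after the start, was 568, 474 and 416 against 399, 313 and 267 bases, which did not overlap and did not pass (log2 difference -0.58, limma adjusted p = 0.077).

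Fosb, a related FOS gene, had 4734, 4107 and 5061 bases in wild type and 3745, 4364 and 3851 in knockout (limma adjusted p = 0.12). Its start region overlapped between genotypes, at 516, 508 and 539 against 485, 506 and 522 bases. A region over the lncRNA gene Gm26802, 8591 to 9533 bases after the Fosb start and beyond its other end, was narrower, with 874, 857 and 795 against 574, 631 and 695 bases (log2 difference -0.41 ± 0.10 SE, limma adjusted p = 0.036), and it was not called in 7 of 10 alternatives. The largest difference near Fosb, in a region overlapping Rtn2, was -0.68 with overlapping groups (limma adjusted p = 0.18).

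Fosl2, which encodes FRA-2, had 3908, 3369 and 2714 bases in wild type and 2877, 2771 and 2368 in knockout (limma adjusted p = 0.11). Its start region, with 1756, 1895 and 1706 bases in wild type and 1834, 1721 and 1667 in knockout, overlapped between genotypes. A region inside the gene, 1951 to 2592 bases after the start (chr5:32138423-32139064), was narrower at 639, 442 and 451 against 277, 306 and 301 bases (log2 difference -0.77 ± 0.16 SE, limma adjusted p = 0.023), and it passed in 7 of 10 alternatives.

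Jun, Jund and Atf3 had mean coverage slightly higher in the knockout, and none passed the test. Jun, the founding JUN gene, had a single region, which runs from 1871 bases before to 2377 bases after the start (chr4:95049845-95054093) and overlaps the antisense lncRNA gene Junos. It covered 4164, 4131 and 4164 bases in wild type and 4176, 4249 and 4188 in knockout, a difference of 1.24% in which the groups did not overlap (log2 difference 0.02, limma adjusted p = 0.84). Atf3, a stress-responsive factor that often represses its targets, had 3582, 3257 and 3354 bases in wild type and 3604, 3415 and 3490 in knockout (log2 difference 0.04, limma adjusted p = 0.64). Its start region was covered by 1439, 1436 and 1418 bases in wild type and 1450, 1510 and 1511 in knockout, slightly more in each knockout sample (limma adjusted p = 0.52). The largest width difference at Atf3, 0.14 on the log2 scale, was in a region 10216 to 11125 bases before the start (limma adjusted p = 0.31).

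Jund, the JUN gene with the steadiest activity in resting cells, had 4247, 5126 and 4282 bases in wild type and 4683, 4564 and 4898 in knockout (limma adjusted p = 0.64). Its gene body region begins 288 bases after the annotated start and reaches into Iqcn (chr8:70698027-70701651). This region was wider in every knockout sample, with 2789, 2779 and 2942 bases in wild type and 3034, 3353 and 3454 in knockout, and did not pass the test (log2 difference 0.21 ± 0.06 SE, limma adjusted p = 0.066). Its largest width difference, in a region 951 to 2571 bases before the start, was 1254, 1576 and 1056 against 1109, 1012 and 1197 bases, which overlapped (log2 difference -0.21, limma adjusted p = 0.36). Relative to each sample's median width the gene body region was called higher (log2 difference 0.27, limma adjusted p = 0.041).

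Set against all genes, 3 of the 9 were called lower by covered length, Junb, Batf and Egr1, and 0 were called higher, where 41.6% of 16252 genes were called lower and 7.64% higher (limma, adjusted p under 0.05). The median log2 difference was -0.22 over the 9 genes and -0.24 over all genes. With coverage scaled to each sample's total, the median of all genes moved to -0.02, 21.3% of genes were called lower and 16.0% higher, and the lower share of all calls went from 84.5% to 57.2%. Only Batf was then lower (-0.55, limma adjusted p = 0.012), Jun (0.25, adjusted p = 0.020) and Atf3 (0.28, adjusted p = 0.034) were higher, and Junb (-0.06) and Egr1 (-0.04) were not called. Fos and Fosb, at -0.22 and -0.21 unscaled, turned to 0.02 and 0.03. Relative to the median gene of the unscaled fit, Batf stood at -0.53, Jund at 0.29, Atf3 at 0.28 and Jun at 0.26, and the remaining 5 genes lay between -0.06 and 0.04.

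Among the 37 regions with a peak in all samples, 6 (16.2%) were narrower in the knockout and 0 wider, where 8.59% of 31159 such regions were narrower and 6.25% wider (limma, adjusted p under 0.05). Every knockout value was below every wild-type value in 9 of the 37 and above in 3, against 26.7% and 12.8% of all. The median log2 difference was -0.14 over the 37 regions and -0.10 over all. All 6 were away from gene starts, with 6 of 29 such regions called. Of the 8 regions over a gene start, or over the lower-coordinate end of Egr1, 0 were called in either direction, with a median difference of -0.04. Among all regions 9.11% of those at gene starts and 8.4% of those elsewhere were narrower, and the difference between the 8 and the 29 was not tested. With widths centred on each sample's median, 3 regions were narrower (Batf, Fosl2 and the nearer Junb region) and 1 was wider (Jund), against 6.99% and 7.73% of all, and the lower share of all calls went from 57.9% to 47.5%.

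**Figure D4:**
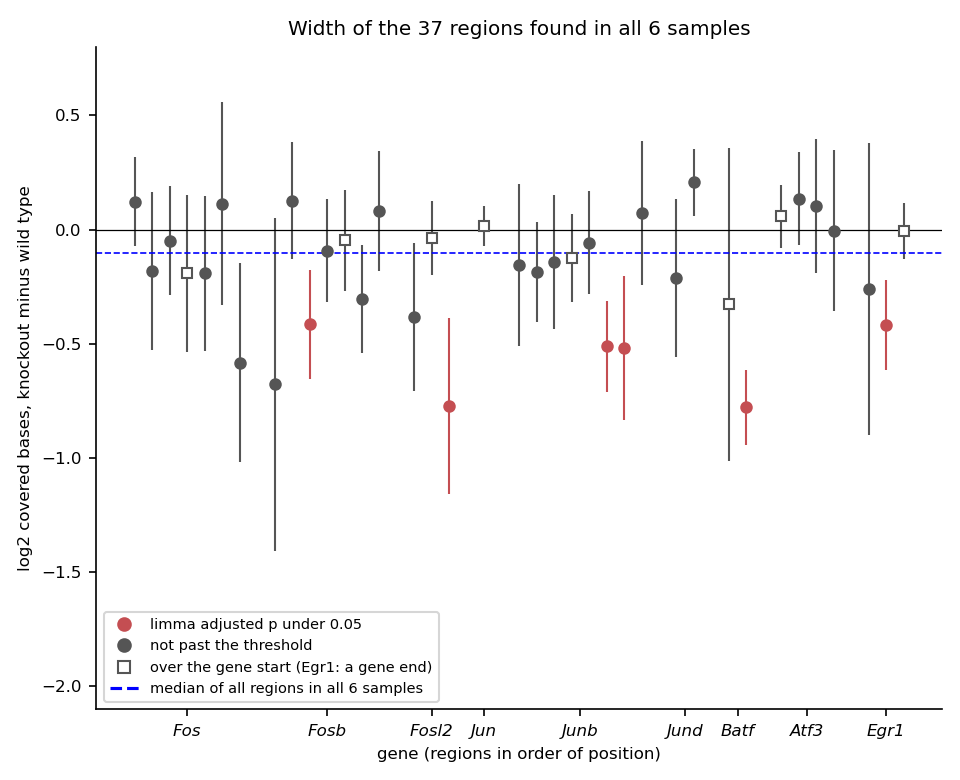
Difference in log2 covered bases between knockout and wild type for the 37 regions with a peak in all 6 samples, with 95% intervals from limma (n = 3 per genotype). Regions over gene starts (open squares) lie between -0.33 and 0.06 and none is called; the 6 called regions (red) lie between -0.78 and -0.41, and the dashed line is the median of all such regions, -0.10.

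Other genes of the pathway were read against the same shares of all genes, 41.6% lower and 7.64% higher, or 21.3% and 16.0% when scaled to the total. Of 20 other AP-1 and basic leucine zipper partners, 10 were called lower by covered length and 1 higher, near those shares. The higher one was Maf, named after its value was seen. In their surroundings 13 of 172 regions were lost (7.56%, against 10.7% near any protein-coding gene) and 4 gained (2.33%, against 4.05%). Bach1, a haem-sensing repressor, had 6883, 8040 and 8383 bases in wild type and 5488, 5497 and 4765 in knockout (log2 difference -0.55, limma adjusted p = 0.0029). Atf4, the effector of the integrated stress response, had 3263, 3471 and 3148 against 2067, 1939 and 1874 (-0.69, limma adjusted p = 4.6e-04). Creb1 was lower as well (-0.38, limma adjusted p = 0.010), while Nfe2l2, with 2 lost and 1 gained of 13 regions, was not called (-0.13, limma adjusted p = 0.13). Scaled to the total, 4 of the 20 were lower and 1 higher, and Creb1 was no longer called.

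Of 32 other immediate early genes, 31 were tested, 6 were lower and 8 higher, against 41.6% and 7.64% of all genes. Of their 209 regions 11 were lost (5.26%, against 10.7%) and 7 gained (3.35%, against 4.05%). The orphan nuclear receptor gene Nr4a1 gained 3 of 13 regions, with 4823, 4850 and 4645 bases in wild type and 6190, 7034 and 6935 in knockout (log2 difference 0.47, limma adjusted p = 0.0015). The antiproliferative gene Btg1 gained 2 of 9 regions, with 3262, 3558 and 3143 against 5961, 5873 and 5152 bases (0.73, limma adjusted p = 4.9e-04). In the opposite direction, Dusp1, a phosphatase that turns off MAP kinases, lost 2 of 6 regions and had 4226, 4342 and 4695 against 3232, 3202 and 2725 bases (-0.51, limma adjusted p = 0.0028). Gadd45b lost 2 of 12 and was not called (-0.22, limma adjusted p = 0.071). The median of this list was -0.04, and scaled to the total 2 genes were lower and 15 higher, against 21.3% and 16.0% of all genes.

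Of 26 genes of the MAP kinase and serum response factor pathway, 25 were tested, 12 were lower and 2 higher, near the 41.6% and 7.64% of all genes. Of their 254 regions 22 were lost (8.66%, against 10.7%) and 7 gained (2.76%, against 4.05%). The higher ones were Map3k1 and Mef2c, the second named after its value was seen. Mapk9, which encodes the JUN kinase JNK2, had 3962, 3372 and 5402 bases in wild type and 2243, 1827 and 1857 in knockout (log2 difference -1.01, limma adjusted p = 0.0022). Mrtfb, a cofactor of serum response factor, lost 3 of 10 regions (-0.81, limma adjusted p = 0.0012). Map3k1, a kinase upstream of JNK, gained 3 of 14 (0.39, limma adjusted p = 0.0052), and Map3k5, with 3 lost and 1 gained of 26, was not called (-0.17, limma adjusted p = 0.071). Scaled to the total, 8 genes were lower and 5 higher.

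**Figure D5:**
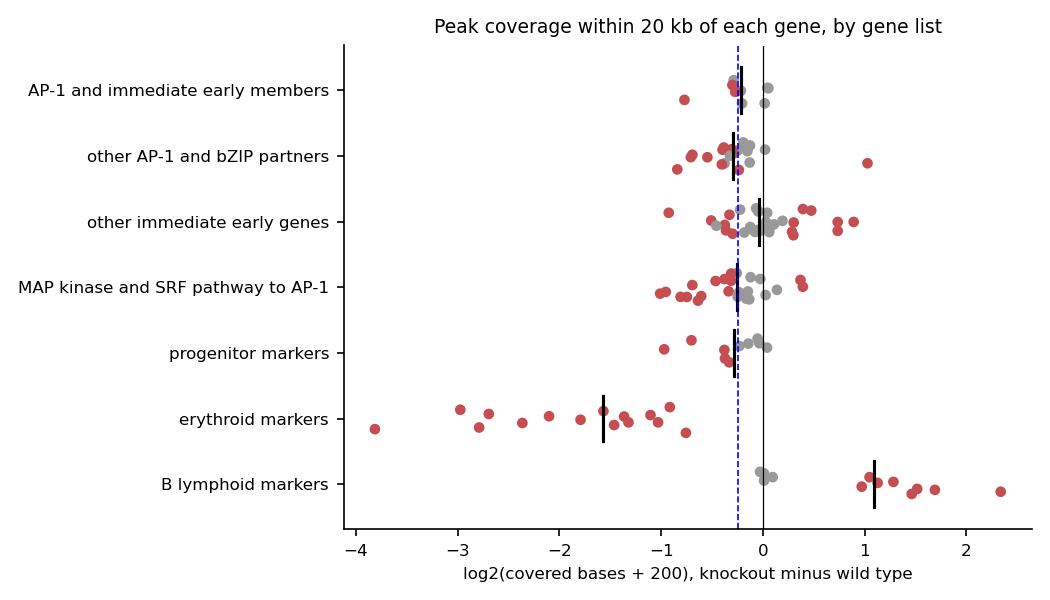
Difference in log2(covered bases + 200) between knockout and wild type for each tested gene of 7 lists, with the list median (black bar), genes past a limma adjusted p of 0.05 in red and the median of all genes (-0.24) as a dashed line. The AP-1 members lie between -0.77 (Batf) and 0.05 (Jund), the erythroid markers lie to its left with a median of -1.57 and the B lymphoid markers to its right with a median of 1.09; with coverage scaled to the total, 3 of the 9 members are called, Batf lower and Jun and Atf3 higher.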

How the data were processed

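Peak lists came from ATAC-seq of lineage-depleted bone marrow cells, 3 samples per genotype. The authors deposited 1 list per sample with chromosome, start and end; MACS2 and build mm10 are named, without a version, per the submitters' processing notes, and the file labels carry a p threshold of 1e-11. The aligner, read filters, insertion-site shift and duplicate handling are not stated in any source available for these samples. Peaks of all samples sharing at least 1 bp were merged into regions. Gene spans, starts and sequences came from RefSeq GRCm38.p6. Bases covered per gene, as log2(bases + 200) for genes with a mean of at least 200 bases, and log2 width of regions in all 6 samples were tested with limma 3.58.1 (R 4.3.3, trend and robust prior, genotype alone), with Benjamini-Hochberg adjustment over all genes or regions. The fit was tested on simulated data. Peak numbers had a two-sided exact permutation test. The members and lists were chosen with earlier results of these data known. The text names all 9 genes, their lost and gained regions, start regions and largest width difference, and from each pathway list the 4 genes with most lost plus gained regions, with ties settled by the larger absolute log2 difference in covered length, so that tied genes with smaller differences are not named.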

Additional observations from a re-analysis of the deposited data

How the results depend on the processing

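Lost regions near the 9 genes numbered 2 of 60 (3.33%, against 10.7% near any protein-coding gene). They were 1 of 37 within 10 kb (2.70% against 10.7%), 8 of 126 within 50 kb (6.35% against 10.7%), 4 of 60 where 2 of 3 samples sufficed (6.67% against 17.6%), 4 of 38 with the widest 50% of peaks (10.5% against 10.5%, so that the contrast was gone) and 1 of 52 with every list trimmed to 44576 peaks (1.92% against 7.43%); leaving out a sample gave 2 to 3. Gained regions numbered 0, and 3 within 50 kb (2.38% against 4.22%) and 2 where 2 of 3 samples sufficed (3.33% against 6.47%). Leaving out a sample gave 0 to 2 (2 without knockout sample 1). Genes whose peak numbers did not overlap numbered 1 (Fos), and 3 (Fosb, Jun and Egr1, higher) per 10000 peaks of the sample, where 28.0% of all genes were higher, and 0 within 10 kb. Within 50 kb they numbered 6 (Fos, Fosb, Fosl2 and Atf3 lower, Jund and Egr1 higher), against 36.9% and 4.19% of all genes. Leaving out a sample gave 1 to 2 and the replicate block below 2, without a share of all genes. Apart from that of Jun, the cause of these moves was not tested. Genes called by covered length numbered 3, and 3 to 4 in the alternatives and 2 to 3 when a sample was left out. Batf was called in all 14 alternatives, Junb in 13 (not when scaled) and Egr1 in 8. Without wild-type sample 1 or 3 or knockout sample 1, Egr1 had a limma adjusted p of 0.070, 0.069 and 0.061. Shared regions called numbered 6, and 4 to 5 in the alternatives and 3 to 4 with a sample left out. Of all shared regions, likewise, 2678, 1780 to 2683 and 1432 to 2492 were narrower.

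No difference that reversed was called in the report's own fit or in the setting that reversed it, but Fos without knockout sample 1 (limma adjusted p = 0.045), Fosb within 50 kb (0.0027) and Jun scaled to the total (0.020) were called. Scaling turned Fos to 0.021 and Fosb to 0.030, and Jun was -0.0079 within 50 kb. Centring on the sample median turned the Fos region starting at 85472039 to 0.0094, the starts of Fosb to 0.011 and Fosl2 to 0.021, the Junb region starting at 84979404 to 0.0012, the Atf3 region starting at 191201152 to 0.054 and the Egr1 end to 0.051. With a sample left out, log2 width differences ranged across 0 at 9 regions: -0.057 to 0.25 at the Fos region starting at 85487686, -0.0087 to 0.15 at the Fosb region starting at 19319702, -0.075 to 0.0070 at the Fosl2 start, -0.31 to 0.0070 and -0.056 to 0.15 at the Junb regions starting at 84965387 and 84997825. The range was -0.51 to 0.022 at the Batf start, -0.14 to 0.10 at the Atf3 region starting at 191201152, -0.55 to 0.020 at the Egr1 region starting at 34850076 and -0.019 to 0.0013 at the Egr1 end. Depth is unknown, which limits whether an absent peak is a closed site.

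Whether the replicate numbers pair the samples is not known. Deviations of same-numbered samples correlated at -0.04, 0.03 and 0.0063 over 16252 genes, and those of differently numbered samples at -0.085 to 0.070. With 3 samples per genotype these values cannot decide it. With the number as a replicate block, 3 genes (Fosl2, Junb and Batf) and 4 regions were called. Of all genes 6159 were lower and 1141 higher, and of all shared regions 1780 narrower. Egr1 had a limma adjusted p of 0.052, and 2 genes (Fos and Batf) had fewer peaks in all 3 pairs.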
